A study of Mus musculus with 20 samples.

Results

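The 9 nonfibrillar collagen genes described here, Col6a1, Col6a2, Col6a3, Col8a1, Col8a2, Col12a1, Col14a1, Col15a1 and Col18a1, were chosen by name, with earlier results of these data known. Each was read as the sum of the values of its annotated transcripts, out of 42890 genes that could be summed in the same way. The tissue was mouse abdominal aorta of strain C57BL/6. Rab22a encodes a small GTPase of endosomes, and the study asked how its loss bears on the response of the vessel to angiotensin II (AngII), the pressor peptide of the renin-angiotensin system. Rab22a KO mice received AngII at 500 ng/kg/min for 14 days (KO AngII) or saline for 14 days (KO saline), and Rab22a WT mice received the same AngII (WT AngII) or saline (WT saline). Each of the 4 groups held 5 libraries made from total RNA after removal of ribosomal RNA. The sources used here do not say whether each library came from a mouse of its own, so p-values measure the spread between these samples. Age, the route of delivery and the cells that lacked Rab22a were not given in the sources used here.

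Collagen VI is assembled from its alpha1, alpha2 and alpha3 chains into beaded microfilaments that lie between cells and the thick collagen fibres. Collagen VIII, built from alpha1 and alpha2 chains, forms hexagonal networks and is known for its production by smooth muscle and endothelial cells of injured vessels. Collagens XII and XIV (FACIT collagens) sit on the surface of collagen fibrils, and collagens XV and XVIII (multiplexins) carry heparan or chondroitin sulphate chains in or near basement membranes, with a C-terminal piece of collagen XVIII known as endostatin.

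The values were FPKM, fragment counts scaled to transcript length and to library depth. The steps between low FPKM values gave back whole reads for 99.2% to 99.4% of the low transcripts (within 0.1 read) and implied 68748211 to 77391227 reads a library. The Rab22a transcript that holds exon 3 was listed at no more than 0.00563 FPKM in the 10 KO libraries, against 1.87 to 8.62 FPKM in the 10 WT libraries (exact permutation test, two-sided, p = 0.00794 within each treatment, the smallest it can give). Rab22a RNA was not absent in KO: the transcript without exon 3 stood at 7.43 to 11.1 FPKM in the KO libraries, against 0.162 to 3.61 FPKM in the WT libraries. All of the markers fixed for vascular smooth muscle, adventitial fibroblasts and endothelium were detected in every group, and fat and skeletal muscle markers were present too, so the libraries held tissue around the vessel wall. Summed skeletal muscle markers ran between 8.20 and 5370 FPKM in KO AngII, 5.07 and 6221 FPKM in KO saline, 13.3 and 5622 FPKM in WT AngII, and 9.77 and 9632 FPKM in WT saline. Their medians were 100 FPKM in KO AngII, 5923 FPKM in KO saline, 1234 FPKM in WT AngII and 517 FPKM in WT saline.

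Of the 44 collagen genes summed, collagen VI alpha1 and alpha2 ranked 5 and 6 by mean FPKM over the 20 libraries, after Col3a1, Col1a1, Col4a1 and Col4a2. Col18a1 followed at rank 7, Col15a1 at 9, Col14a1 at 10, Col6a3 at 12, Col8a1 at 16, Col12a1 at 21 and Col8a2 at 28. The 9 genes together made a median of 21.8% of the summed collagen FPKM in KO AngII, 21.3% in KO saline, 22.0% in WT AngII and 23.0% in WT saline. Between libraries this share ran from 18.03% to 27.5%.

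**Figure D1:**
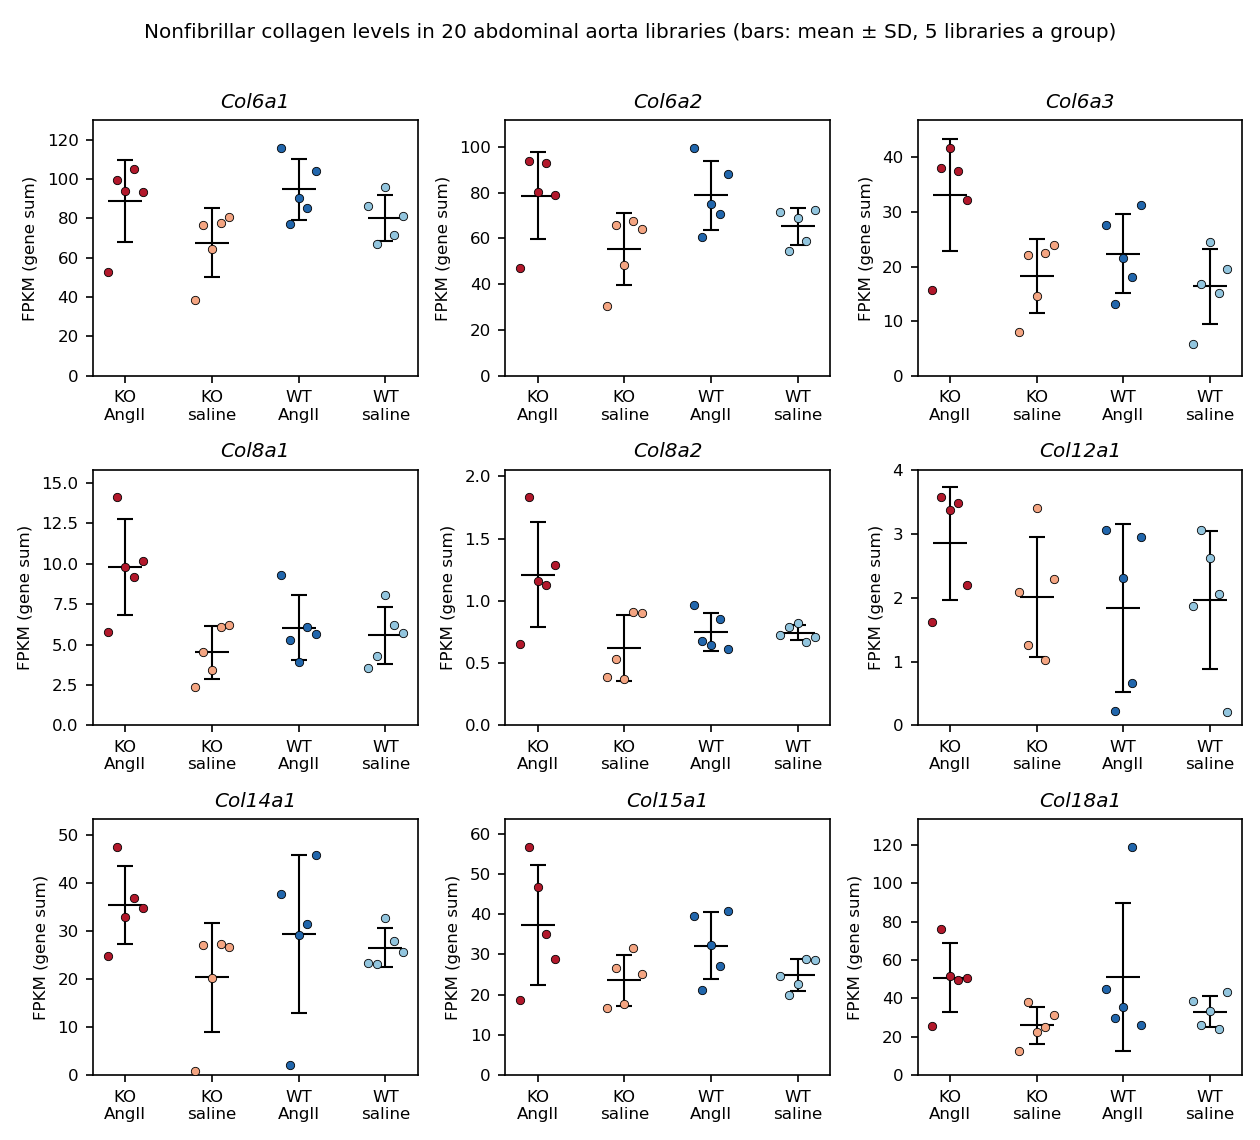
FPKM of each of the 9 collagen genes (vertical axis, linear from 0) in the 20 libraries, with points for libraries 1 to 5 of each group from left to right and bars for the mean ± SD. Groups overlap for every gene. Col14a1 lies near 0 in KO saline 1 and WT AngII 2, and Col18a1 stands at 119 FPKM in WT AngII 4.

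After AngII the collagens were higher on average than after saline in the KO aorta, with Col8a1 at 9.81 ± 2.98 FPKM in KO AngII and 4.51 ± 1.66 FPKM in KO saline (SD, n = 5 each), and in the WT aorta the differences were smaller and, for Col12a1 and Col14a1, below 0. No gene of the 9 changed by the test in either genotype. Of the 8 genes that had at least 1 FPKM in at least 5 libraries and so entered the fit (limma on log2(FPKM + 1), Benjamini-Hochberg adjusted p under 0.05 over 15010 genes), 0 were called for AngII against saline in KO, where 0% of all genes were called, and 0 for AngII against saline in WT, where 0% were called. Col8a2 reached 1 FPKM in only 4 libraries and was left out of that fit. limma-voom on the recovered reads also called 0 genes of all in either genotype. At an unadjusted p under 0.05, 5 of the 8 were higher after AngII in KO, where 2.32% of all genes were, and 0 of the 8 in WT, where 1.47% were. All 8 lay above 0 in KO, where 38.7% of all genes did, with a median log2 difference of 0.72 against -0.06 over all genes. In WT 6 of 8 lay above 0, where 53.6% of all genes did, with a median of 0.24 against 0.02. These counts are a description, as the genes were chosen with earlier results of these data known. The 8 genes also varied together within groups (median Pearson r of 0.57 over 28 pairs), so they do not count as separate observations. Groups did not separate for any of the 9 genes in any of the 4 pairwise comparisons. Of the 15010 tested genes, the groups separated upward for 0.26% for AngII against saline in KO and 0.333% in WT. For KO against WT they did so for 1.37% under AngII and 0.26% under saline. In the bulk tissue fewer cells of a type and less RNA per cell cannot be told apart.

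**Figure D2:**
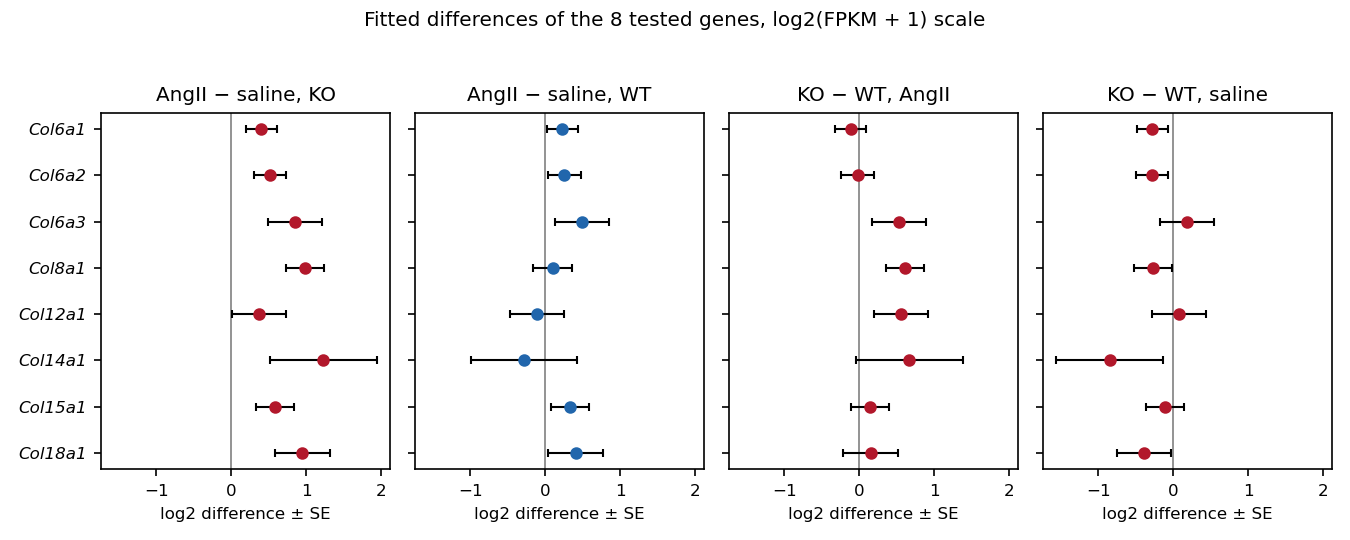
Fitted log2 differences with their standard errors (horizontal axis, log2(FPKM + 1) scale) for the 8 tested genes in 4 comparisons, with AngII minus saline in the left panels and KO minus WT in the right panels. All 8 points lie right of 0 for AngII against saline in KO, and none passed the adjusted threshold in any panel.

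Among the collagen VI chains, Col6a1 stood at 52.8, 99.7, 94.02, 105 and 93.5 FPKM in KO AngII libraries 1 to 5, against 38.4, 76.8, 64.6, 77.8 and 80.6 FPKM in KO saline. In WT AngII it stood at 116, 77.4, 90.6, 85.3 and 104 FPKM, against 86.3, 67.1, 96.1, 71.4 and 81.0 FPKM in WT saline. Library 1 was the lowest of its group in both KO groups, and 4 of the 5 KO AngII libraries lay above every KO saline library. On the log2 scale the difference was 0.40 ± 0.21 (SE) in KO and 0.23 ± 0.21 in WT, with limma adjusted p of 0.991 and 1.00. Without KO saline 1 the difference in KO was 0.21, and without KO AngII 1 it was 0.57.

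Col6a2 ran alongside Col6a1: its means were 78.7 ± 19.0 FPKM in KO AngII and 55.3 ± 15.8 FPKM in KO saline, and 78.8 ± 15.3 FPKM in WT AngII and 65.2 ± 7.98 FPKM in WT saline (SD, n = 5 each). The log2 difference was 0.52 ± 0.22 in KO and 0.26 ± 0.22 in WT, or 0.32 in KO without KO saline 1 and 0.17 in WT without WT AngII 1. Within groups the 2 genes moved together across the 20 libraries (Pearson r = 0.97 between deviations from the group means), the highest of the 28 pairs of tested members, which ran from -0.20 to 0.97 with a median of 0.57. They are neighbours on the minus strand of chromosome 10, 85.2 kb apart, with Col18a1 another 326 kb beyond Col6a1. All points of such a correlation share their library's depth and tissue make-up.

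Because these 2 chains moved together, their promoter windows are shown from RefSeq (GRCm38.p6), each set around an annotated start and printed 5′ to 3′ on the gene's strand. Capitals mark matches, on either strand, to the GC box read as GGGCGG, the TATA box read as TATAAA, the CCAAT box read by those letters, AP-1 read as TGANTCA, the TEAD (M-CAT) element read as CATTCC and SMAD read as CAGACA, overlapping matches of 1 motif being counted apart. Of 32851 promoter windows of the same length, 35.7% held the GC box, 13.6% the TATA box, 37.4% the CCAAT box, 7.81% the AP-1 letters, 14.7% the TEAD letters and 21.04% the SMAD letters. The window of Col6a1 is chr10:76725995-76726294 on the minus strand and holds 1 AP-1 match. That match lies downstream of the start of the main Col6a1 transcript in GENCODE M21, at 76726168. The window printed for Col6a2, at the start of its main transcript, is chr10:76623581-76623880 on the same strand and holds 1 GC box. Another Col6a2 window, chr10:76623355-76623654, also covers that start and is not printed. It holds 3 GC boxes and 1 TEAD match, at 64.3% GC.
Col6a1: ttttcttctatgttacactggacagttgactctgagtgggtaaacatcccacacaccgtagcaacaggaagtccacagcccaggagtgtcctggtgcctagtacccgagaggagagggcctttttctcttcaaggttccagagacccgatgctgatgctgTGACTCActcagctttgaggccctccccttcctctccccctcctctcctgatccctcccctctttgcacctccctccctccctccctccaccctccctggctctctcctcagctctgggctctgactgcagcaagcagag
Col6a2: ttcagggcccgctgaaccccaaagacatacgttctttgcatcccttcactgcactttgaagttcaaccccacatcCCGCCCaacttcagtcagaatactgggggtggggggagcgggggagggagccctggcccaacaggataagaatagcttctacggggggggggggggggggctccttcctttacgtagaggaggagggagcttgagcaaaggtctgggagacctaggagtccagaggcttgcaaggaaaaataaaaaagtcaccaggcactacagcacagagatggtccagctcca
The windows printed share no motif of the 6 searched, and their GC contents were 57.3% and 56.7%, against a median of 52.7% over all windows.

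Col6a3, the long alpha3 chain with many von Willebrand factor A domains, stood at 15.7, 38.1, 41.8, 37.5 and 32.2 FPKM in KO AngII, against 8.01, 22.1, 14.53, 22.5 and 24.0 FPKM in KO saline. It stood at 27.6, 13.2, 21.6, 18.05 and 31.2 FPKM in WT AngII, against 5.76, 16.9, 24.5, 15.2 and 19.5 FPKM in WT saline. Again 4 of 5 KO AngII libraries lay above every KO saline library and KO AngII 1 did not, whereas the WT groups overlapped over most of their range. The fitted difference in log2 units was 0.85 ± 0.36 in KO and 0.49 ± 0.36 in WT. The WT value was 0.18 without WT saline 1, in which the main Col6a3 transcript was listed at 0.

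Col8a1, the alpha1 chain of collagen VIII, stood at 5.76, 14.1, 9.79, 9.21 and 10.2 FPKM in KO AngII, against 2.35, 4.51, 3.45, 6.08 and 6.19 FPKM in KO saline. In WT AngII it stood at 9.32, 5.27, 3.92, 6.08 and 5.66 FPKM, against 3.58, 4.27, 8.09, 6.22 and 5.73 FPKM in WT saline. In KO, 4 AngII libraries exceeded all 5 saline libraries and KO AngII 1 lay among them, whereas in WT the 2 groups were interleaved. The log2 difference was 0.98 ± 0.26 in KO, a fold of 1.98 on that scale (unadjusted p = 0.00117, limma adjusted p = 0.634), and 0.10 ± 0.26 in WT. It lay between 0.82 and 1.14 in KO when any single library was left out, and in WT it was -0.05 without WT AngII 1 and -0.02 without WT saline 1. The difference between these AngII effects was 0.88 ± 0.36 (unadjusted p = 0.0250, adjusted p = 0.995).

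Col8a2, the alpha2 chain that co-assembles with alpha1, was the scarcest of the 9 genes, at 0.657, 1.83, 1.16, 1.13 and 1.29 FPKM in KO AngII, against 0.386, 0.534, 0.375, 0.912 and 0.903 FPKM in KO saline. It ran from 0.614 to 0.969 FPKM in WT AngII, against 0.673 to 0.820 FPKM in WT saline. As for Col8a1, the KO AngII libraries other than library 1 lay above the KO saline libraries. In the fit without a filter on low values, over 42890 genes, its log2 difference in KO was 0.44 ± 0.13 (unadjusted p = 0.00297, adjusted p = 1), on a scale where the added 1 shrinks the differences of low genes. The ratio of Col8a1 to Col8a2 FPKM had geometric means of 8.19 in KO AngII, 7.36 in KO saline, 7.83 in WT AngII and 7.20 in WT saline.

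The promoter windows of this pair are shown side by side because both chains enter the same networks. That of Col8a1 is chr16:57754688-57754987 on the minus strand, with 4 GC boxes and 1 SMAD match, and that of Col8a2 is chr4:126286544-126286843 on the plus strand, with 4 GC boxes.
Col8a1: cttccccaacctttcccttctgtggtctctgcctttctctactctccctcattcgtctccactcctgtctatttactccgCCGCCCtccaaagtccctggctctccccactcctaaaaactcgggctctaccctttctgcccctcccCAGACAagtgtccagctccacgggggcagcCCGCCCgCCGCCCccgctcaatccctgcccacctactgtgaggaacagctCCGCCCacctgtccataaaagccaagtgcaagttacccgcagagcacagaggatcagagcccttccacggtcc
Col8a2: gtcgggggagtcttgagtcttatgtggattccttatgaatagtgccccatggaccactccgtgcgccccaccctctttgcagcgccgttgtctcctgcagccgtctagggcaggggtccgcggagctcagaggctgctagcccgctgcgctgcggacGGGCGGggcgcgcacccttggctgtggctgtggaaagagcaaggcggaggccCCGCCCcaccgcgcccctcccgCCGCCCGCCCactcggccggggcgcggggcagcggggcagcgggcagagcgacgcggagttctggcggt
GC content was 60.3% and 71.7%, with 12 and 32 CG dinucleotides, against a median of 7 over all windows. Both hold the GC box more than once; the letters are a description, and no binding was measured.

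Of the FACIT collagens, Col14a1 (collagen XIV) stood at 24.8, 47.5, 32.9, 36.7 and 34.7 FPKM in KO AngII, against 0.733, 27.0, 20.1, 27.2 and 26.6 FPKM in KO saline. In WT AngII it stood at 37.7, 2.19, 29.2, 31.5 and 45.9 FPKM, against 23.3, 23.0, 32.7, 27.9 and 25.6 FPKM in WT saline. KO saline 1 and WT AngII 2 stood apart from the other 18 libraries, which lay between 20.1 and 47.5 FPKM. The log2 difference was 1.23 ± 0.71 in KO and -0.28 ± 0.71 in WT. Without KO saline 1 it was 0.45 in KO, and without WT AngII 2 it was 0.42 in WT, so that the direction in WT turned on 1 library. With both left out, the values were 0.45 ± 0.17 and 0.42 ± 0.17 (adjusted p = 1 and 1.00), and the difference between the AngII effects was 0.03 ± 0.25, against 1.51 ± 1.01 with all libraries.

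Col12a1 (collagen XII) was low, between 1.63 and 3.58 FPKM in KO AngII, 1.03 and 3.41 in KO saline, 0.231 and 3.06 in WT AngII and 0.216 and 3.06 in WT saline. The groups overlapped over nearly their whole ranges, and WT AngII 2 and WT saline 5 were the lowest of the 20 libraries. Its log2 difference was 0.38 ± 0.36 in KO and -0.11 ± 0.36 in WT. The KO value was 0.25 without KO saline 4. The direction in WT turned to 0.16 without WT AngII 2, 0.05 without WT AngII 4 and 0.03 without WT saline 2, and it was -0.40 without WT saline 5. Of the 8 tested genes Col12a1 had the weakest ties to the others within groups, with r between -0.20 and 0.33.

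Col15a1, whose product lies at the outer face of basement membranes, stood at 18.8, 56.8, 46.8, 35.2 and 28.9 FPKM in KO AngII, against 16.8, 26.7, 17.7, 31.5 and 25.1 FPKM in KO saline. In WT AngII it stood at 39.5, 21.2, 32.4, 27.2 and 40.8 FPKM, against 24.6, 19.9, 22.5, 29.0 and 28.6 FPKM in WT saline. In each genotype 3 AngII libraries lay above every saline library and the others overlapped with them. Col15a1 thus had a log2 difference of 0.58 ± 0.25 in KO and 0.33 ± 0.25 in WT.

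Col18a1, the source of endostatin, stood at 25.7, 76.1, 51.8, 49.8 and 50.4 FPKM in KO AngII, against 12.8, 37.8, 22.4, 25.01 and 31.5 FPKM in KO saline. In WT AngII it stood at 44.9, 29.5, 35.6, 119 and 26.2 FPKM, against 38.4, 26.2, 33.5, 24.1 and 43.2 FPKM in WT saline. In KO, 4 AngII libraries lay above every saline library, and in WT the groups overlapped apart from WT AngII 1 and WT AngII 4. The log2 difference was 0.95 ± 0.36 in KO and 0.40 ± 0.36 in WT, and without WT AngII 4 the WT value was 0.04.

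Col18a1 is read from starts 52.6 kb apart on the minus strand of chromosome 10, and both promoter windows are shown because the files separate their transcripts. The upstream start gives the main transcript, ENSMUST00000081654 (the short form known for basement membranes of vessels), and its window is chr10:77166481-77166780, with 3 GC boxes and 1 CCAAT box. The downstream start gives ENSMUST00000072755, which opens with an exon of 1729 bases that the main transcript lacks, and ENSMUST00000105409, which starts a little further downstream. The window chr10:77113656-77113955 is set on the start of ENSMUST00000105409 and holds 2 TEAD matches and 1 SMAD match. The start of ENSMUST00000072755 lies near the 5′ end of this window, and all 3 matches lie inside the first exon of that transcript.
Col18a1 upstream: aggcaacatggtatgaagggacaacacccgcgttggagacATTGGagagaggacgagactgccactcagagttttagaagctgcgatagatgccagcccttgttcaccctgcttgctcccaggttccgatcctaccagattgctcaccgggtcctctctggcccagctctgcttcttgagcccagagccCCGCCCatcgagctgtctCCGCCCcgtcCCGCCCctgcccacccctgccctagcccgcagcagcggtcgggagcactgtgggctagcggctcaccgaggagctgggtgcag
Col18a1 downstream: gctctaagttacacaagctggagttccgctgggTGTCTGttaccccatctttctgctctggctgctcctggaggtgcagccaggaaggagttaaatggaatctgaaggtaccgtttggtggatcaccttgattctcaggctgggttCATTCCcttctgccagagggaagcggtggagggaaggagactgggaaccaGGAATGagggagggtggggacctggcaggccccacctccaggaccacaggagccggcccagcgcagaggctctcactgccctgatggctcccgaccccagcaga
The downstream start took 11.9% ± 3.51 of the FPKM of both starts in KO AngII, against 15.9% ± 4.07 in KO saline, and 6.33% ± 5.55 in WT AngII, against 11.5% ± 2.04 in WT saline (SD, n = 5 each). The lowest share, 0.807%, was that of WT AngII 4, in which the main transcript alone was listed at 118 FPKM. ENSMUST00000072755 was listed at 1.99, 11.3, 3.93, 3.67 and 2.72 FPKM in KO AngII, against 0.55, 0.49, 3.28, 0.96 and 1.84 FPKM in WT AngII. Those groups overlapped through WT AngII 3, and the log2 difference between KO and WT under AngII was 1.17 ± 0.34 (limma over 25362 transcripts, adjusted p = 0.105). Without WT AngII 3, the library through which the groups overlapped, it was 1.40 ± 0.32 (limma adjusted p = 0.0461). No other setting called a transcript of these genes. As this call turned on leaving out that library, no conclusion is drawn from it.

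Between genotypes the 8 tested genes were not called either. For KO against WT under AngII, 0 of 8 were called, where 1.83% of all genes were, and 6 of 8 lay above 0, where 38% of all genes did. The largest value relative to its error was that of Col8a1, at 0.61 ± 0.26 (unadjusted p = 0.0274, adjusted p = 0.225; 1 of 8 had an unadjusted p under 0.05 and lay above 0, where 5.14% of all genes did), followed by Col12a1 at 0.56 ± 0.36 and Col6a3 at 0.53 ± 0.36. Col14a1 was at 0.67 ± 0.71 and turned to -0.04 without WT AngII 2. Col6a1 was at -0.11 ± 0.21 and turned to 0.06 without KO AngII 1, to 0.10 after quantile normalization and to 0.00 with scaling factors in the manner of TMM (trimmed mean of M values), and Col6a2 at -0.02 ± 0.22 lay at 0.18 and 0.09 under the same scalings. Col15a1, at 0.15 ± 0.25, and Col18a1, at 0.15 ± 0.36, lay at -0.02 and -0.01 without KO AngII 2. Quantile normalization moved the median of all genes in this comparison by 0.13 on the log2 scale, and split the called genes into 250 higher and 124 lower, against 59 higher and 216 lower in the main analysis.

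For KO against WT under saline, 0 of 8 were called, where 0.0133% of all genes were, and 2 of 8 lay above 0 (Col6a3 and Col12a1), where 42.9% of all genes did. The values ran from -0.85 ± 0.71 for Col14a1, which was -0.06 without KO saline 1, to 0.18 ± 0.36 for Col6a3, which was -0.13 without WT saline 1. Adjusted p lay between 0.826 and 0.976, and 0 of 8 were higher at an unadjusted p under 0.05, where 1.89% of all genes were. For the difference between the AngII effects in KO and WT, 0 of 8 were called, where 0% of all genes were, and all 8 lay above 0, where 41% of all genes did. Col8a1 alone had an unadjusted p under 0.05 (1 of 8), where 1.53% of all genes had one with a positive value. With KO saline 1 and WT AngII 2 left out, Col6a1, Col6a2 and Col6a3 lay at -0.09, -0.02 and -0.06 instead of 0.17, 0.26 and 0.35, while Col8a1 lay at 0.69 ± 0.37. Without KO saline 1 alone the 3 collagen VI genes lay at -0.020, 0.066 and 0.10 in the same order, and Col18a1 lay at 0.32 instead of 0.54. Col15a1 lay at 0.081 without KO AngII 2, instead of 0.25.

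Averaged over genotypes, AngII against saline gave 0 calls of 8, where 0% of all genes were called. All 8 lay above 0, where 42.8% of all genes did, and 6 of 8 had an unadjusted p under 0.05 with a positive difference, where 2.15% of all genes did. The exceptions were Col12a1, at 0.13 ± 0.26, and Col14a1, at 0.47 ± 0.50. Col8a1 was at 0.54 ± 0.18 (adjusted p = 0.890), Col18a1 at 0.68 ± 0.26, Col6a3 at 0.67 ± 0.25, Col15a1 at 0.46 ± 0.18, Col6a2 at 0.39 ± 0.15 and Col6a1 at 0.31 ± 0.15 (adjusted p = 1.00 for each). Averaged over treatments, KO against WT gave 0 calls of 8, where 4.15% of all genes were called, and 0 of 8 were higher at an unadjusted p under 0.05, where 5.69% of all genes were. The median of the 8 was -0.03, against -0.07 over all genes. The called genes there were 143 higher and 480 lower, against 429 higher and 245 lower after quantile normalization.

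**Figure D3:**
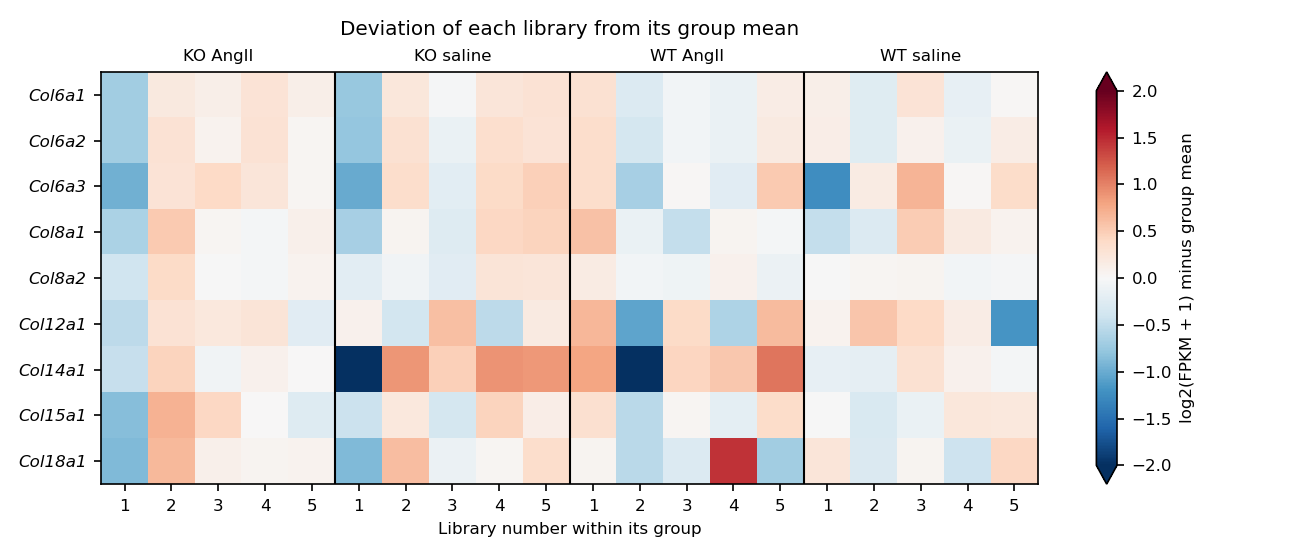
Deviation of log2(FPKM + 1) from the group mean (colour; blue below, red above; the scale ends at 2 in either direction) for the 9 genes (rows) in the 20 libraries (columns, grouped). KO AngII 1 is below its group mean for all 9 genes and KO saline 1 for 8 of 9.

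Much of the spread within groups followed the library. KO AngII 1 was the lowest of its group for all 9 genes, KO saline 1 for 7 of 9 and WT AngII 2 for 6 of 9, with median deviations of -0.69, -0.75 and -0.53 on the log2 scale, and KO AngII 2 was the highest of its group for 7 of 9. Wherever 4 of 5 KO AngII libraries lay above every KO saline library, the exception was KO AngII 1, so those genes are not separate observations. The share of all genes with such a pattern was not counted. KO saline 1 also had the lowest summed smooth muscle markers of all 20 libraries, at 1305 FPKM, and the lowest summed adventitial fibroblast markers, at 1018 FPKM. The other libraries that stood apart did not follow both lists: KO AngII 1 ranked 19 for smooth muscle markers and 6 for fibroblast markers, WT AngII 2 ranked 7 and 17, and KO AngII 2, the high library, ranked 8 and 19 of 20. For skeletal muscle markers KO saline 1, WT AngII 2 and KO AngII 1 ranked 4, 5 and 6, and KO AngII 2 ranked 12. WT saline 5, KO saline 5 and KO saline 4 ranked 1, 2 and 3, with median collagen deviations of 0.07, 0.30 and 0.34. The part of skeletal muscle in these deviations was not tested. The 12 smooth muscle markers summed to 2390 to 4324 FPKM in KO AngII and 1305 to 3323 FPKM in KO saline, and to 2778 to 6732 FPKM in WT AngII and 2959 to 4743 FPKM in WT saline, with no marker at 0 in all libraries of a group. Of the 11 smooth muscle markers tested, 10 lay above 0 for AngII against saline in KO (median log2 difference 0.51), 6 in WT (0.06) and 0 for KO against WT under saline (-0.49). Of all genes 38.7%, 53.6% and 42.9% lay above 0 in these comparisons, and the first 2 shares also stand beside the marker counts that follow. The part of smooth muscle in the collagen values was not tested. Brown fat markers lay above 0 for 9 of 9 in KO (median 0.64) and 1 of 9 in WT (-0.15), and summed to 895 to 2927 FPKM in KO AngII and 248 to 1911 FPKM in KO saline, and to 695 to 2066 FPKM in WT AngII and 742 to 2216 FPKM in WT saline. Mesothelial markers lay above 0 for 5 of 5 tested in KO (median 1.02) and 0 of 5 in WT (-0.31), at low sums of 1.43 to 47.7 FPKM in KO AngII and 1.25 to 2.56 FPKM in KO saline, and of 2.40 to 13.8 FPKM in WT AngII and 1.54 to 20.4 FPKM in WT saline. KO AngII 2 held the highest sum of all 20 libraries for both of these lists, and T and NK cell markers lay above 0 for 0 of 12 in KO and 11 of 12 in WT. None of these markers was called in either comparison, and their part in the collagen values was not tested. Skeletal muscle markers lay above 0 for 2 of 14 in KO (median -2.29) and 8 of 14 in WT (0.07), with none called. The 14 fibroblast markers summed to 1167 to 1820 FPKM in KO AngII and 1018 to 2303 FPKM in KO saline, and to 1306 to 1930 FPKM in WT AngII and 1238 to 1845 FPKM in WT saline, again with none at 0 throughout a group. With the fibroblast level as a covariate the difference in KO was 0.81 for Col8a1, 0.82 for Col18a1, 0.65 for Col6a3 and 0.24 for Col6a1, and with the skeletal muscle and white fat levels it was 0.89, 0.84, 0.72 and 0.30 for the same genes, none of them called. Markers of white fat summed to 6655 to 9004 FPKM in KO AngII and 7493 to 12807 FPKM in WT AngII, and those of B and plasma cells to 9.73 to 365 FPKM and 279 to 657 FPKM in the same groups, and their part in the differences between genotypes was not tested.

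By the deviations from group means over the 20 libraries, the genes most like Col6a1 were Epha3 (Pearson r = 0.96), Col1a1 (0.94) and Col3a1 (0.93), and those most like Col6a2 were Col4a1 (0.95), Col4a2 (0.92) and Epha3 (0.92). Col15a1 was nearest to Ctnna1 (0.83), Serpinh1 (0.82), the collagen chaperone of the endoplasmic reticulum, and Col4a1 (0.82). Col18a1 was nearest to Slc22a21 (0.87), Mfap4 (0.80) and the collagen cross-linking enzyme Lox (0.80), and Col14a1 to the laminin gene Lama4 (0.86), Srp54b (0.84) and Atl3 (0.81). Col8a1 was nearest to Kdelr3 (0.88), Fjx1 (0.87) and Ndufa4l2 (0.86), Col6a3 to Mocs1 (0.84), Hacd4 (0.79) and Mgl2 (0.78), and Col12a1 to Pigb (0.84), Sppl2a (0.84) and Zfp60 (0.79). These values describe the 20 libraries, whose points share depth and tissue make-up. The Col14a1 deviations were -3.13 in KO saline 1 and -2.82 in WT AngII 2, where its main transcript was listed at 0. In the other 18 libraries they ran from -0.46 to 1.06, so its values of r lean on those 2 libraries. The lowest Col6a3 deviation, -1.24, was that of WT saline 1, where its main transcript was listed at 0.

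**Figure D4:**
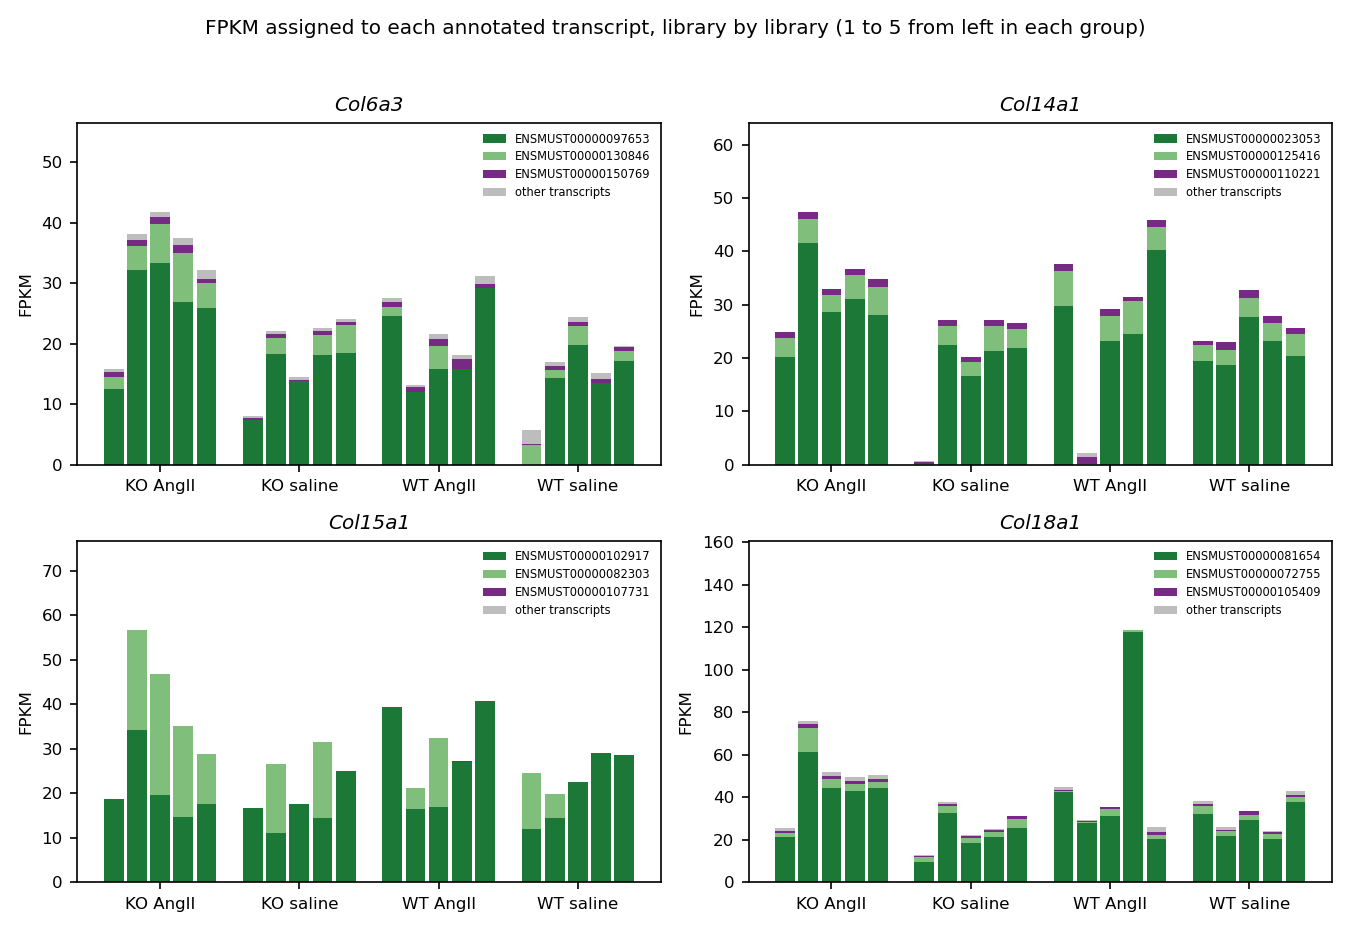
FPKM listed for each annotated transcript of Col6a3, Col14a1, Col15a1 and Col18a1 (stacked bars, 1 bar a library, groups separated by gaps). The main transcript is missing from the Col14a1 bars of KO saline 1 and WT AngII 2 and from the Col6a3 bar of WT saline 1, and the second Col15a1 form is present in 10 of 20 libraries.

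The files list values for single transcripts, 34 of them from these 9 genes, and for several genes the assignment between transcripts was all or none. The main Col14a1 transcript, ENSMUST00000023053, was listed at 0 in KO saline 1 and WT AngII 2 and between 16.6 and 41.5 FPKM in the other 18 libraries. The main Col6a3 transcript, ENSMUST00000097653, was listed at 0 in WT saline 1 and between 7.31 and 33.3 FPKM elsewhere. Of 5284 transcripts with a median of at least 10 FPKM, 3.44% were listed at 0 in at least 1 library, and the main Gapdh transcript was listed at 0 in 18 of 20 libraries, so a 0 here is a listed value and not a measure of absence.

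Col15a1 was split between ENSMUST00000102917 and ENSMUST00000082303, which lacks an exon of 66 bases at chr4:47280149-47280214 (mm10, GENCODE M21). The form without the exon was listed at no more than 0.03 FPKM in 10 libraries and between 4.78 and 27.1 FPKM in the other 10, being present in 4 of 5 KO AngII, 2 of 5 KO saline, 2 of 5 WT AngII and 2 of 5 WT saline libraries. The form with the exon was listed in every library, at 11.1 to 40.8 FPKM. The main transcript of Col6a3 lacks exons of 600, 603 and 618 bases, each a multiple of 3, and ENSMUST00000056925, which holds all of them, reached no more than 0.731 FPKM in any library. In Col6a2 the main transcript took 70.7% ± 1.67 of the gene's FPKM in KO AngII and 71.4% ± 2.95 in KO saline, and 74.5% ± 2.68 in WT AngII and 69.4% ± 3.61 in WT saline, the second form having another last exon. Col12a1 had 60.2% ± 14.9 in its main transcript in KO AngII and 81.7% ± 10.3 in KO saline (exact permutation test, two-sided, unadjusted p = 0.0159, adjusted p = 0.490). In WT it had 58.2% ± 31.7 after AngII and 81.4% ± 7.23 after saline (same test, unadjusted p = 0.175, adjusted p = 0.490), so the share was lower after AngII in both genotypes. Of 36 such share differences, 9 genes by 4 comparisons, 0 passed after adjustment and 3 had an unadjusted p under 0.05. In the fit over single transcripts, 17 of the 34 were tested and 0 were called in any of 7 comparisons, where 0.00394% of all transcripts were called for AngII against saline in KO, 0% in WT, 0.564% for KO against WT under AngII and 0.071% under saline, 0% for the difference between AngII effects, 0.00394% for AngII averaged over genotypes and 2.67% for KO against WT averaged over treatments.

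**Figure D5:**
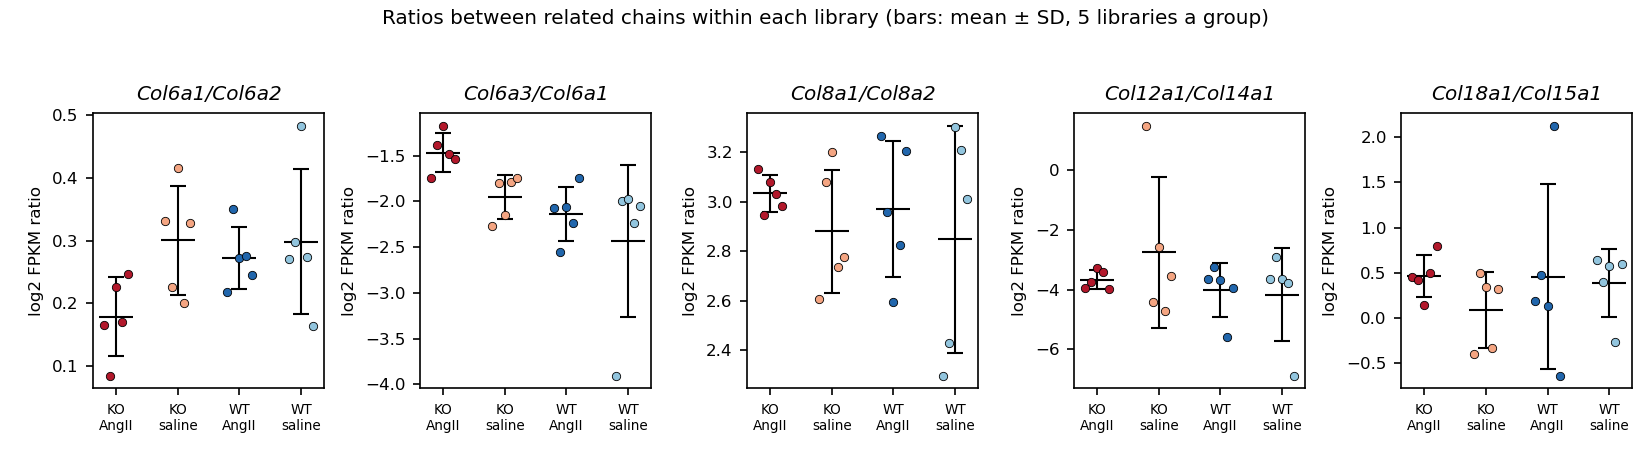
log2 ratio of FPKM between related chains within each library (vertical axes; points are libraries, bars mean ± SD). The Col6a3 to Col6a1 ratio is highest in KO AngII, and single points stand far below or above their groups for Col6a3/Col6a1, Col12a1/Col14a1 and Col18a1/Col15a1.

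Ratios within a library do not depend on its scale. The Col6a3 to Col6a1 ratio of FPKM had geometric means of 0.362 in KO AngII and 0.259 in KO saline, and 0.228 in WT AngII and 0.185 in WT saline. It ran from 0.298 to 0.445 in KO AngII, from 0.208 to 0.298 in KO saline, from 0.171 to 0.299 in WT AngII and from 0.0667 to 0.254 in WT saline, so that KO AngII overlapped with KO saline and WT AngII through its library 1 and lay above WT saline. The log2 difference was 0.48 for AngII against saline in KO and 0.67 for KO against WT under AngII (exact permutation tests, two-sided, unadjusted p = 0.0159 for both, adjusted p = 0.159 over 20 ratio tests). The Col6a1 to Col6a2 ratio had geometric means of 1.13 in KO AngII and 1.23 in KO saline, and 1.21 in WT AngII and 1.23 in WT saline, with differences of -0.12 for AngII against saline in KO and -0.09 for KO against WT under AngII (unadjusted p = 0.0397 for both, adjusted p = 0.198). Col18a1 to Col15a1 had geometric means of 1.38 in KO AngII and 1.06 in KO saline, and 1.37 in WT AngII and 1.31 in WT saline. None of the 20 passed, and the smallest p that 5 against 5 libraries allow is 0.00794. WT saline 1, with its main Col6a3 transcript listed at 0, held the lowest Col6a3 to Col6a1 ratio of all 20 libraries.

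The genes around these collagens were read from lists of named genes, as counts of those tested. For AngII against saline in KO, 7 of 9 fibrillar collagens, 8 of 10 other nonfibrillar collagens, 17 of 22 genes of collagen biosynthesis, 11 of 19 of processing and degradation, 10 of 12 receptors, 15 of 18 binding partners and basement membrane genes and 9 of 15 TGF-beta ligands, receptors and targets lay above 0. In WT the counts were 5 of 9, 8 of 10, 17 of 22, 14 of 19, 3 of 12, 12 of 18 and 9 of 15, in the same order. Of all genes 38.7% lay above 0 in KO and 53.6% in WT, so the counts of the 2 genotypes have different baselines. No gene of these lists was called in either genotype. Those with the lowest p in KO were Ccn2, a TGF-beta target, at 1.77 ± 0.39, the lysyl hydroxylase gene Plod2 at 0.91 ± 0.22, and Bgn, the proteoglycan biglycan that binds collagen VI, at 1.00 ± 0.26 (adjusted p = 0.599 for each). Among receptors, Cspg4, the NG2 proteoglycan that binds collagen VI, averaged 27.2 ± 7.54 FPKM in KO AngII and 18.3 ± 6.48 FPKM in KO saline, and 21.5 ± 5.39 FPKM in WT AngII and 22.2 ± 4.20 FPKM in WT saline (adjusted p = 0.991 in KO). Itga1, the alpha1 chain of a collagen-binding integrin, averaged 17.1 ± 2.21 FPKM in KO AngII and 11.1 ± 1.996 FPKM in WT AngII (log2 difference 0.58 ± 0.16, adjusted p = 0.0583). Lum, a small proteoglycan of collagen fibrils, was the only gene called in these lists of genes around the collagens. It averaged 79.6 ± 26.3 FPKM in KO AngII, 46.0 ± 10.4 in KO saline, 46.1 ± 15.6 in WT AngII and 30.4 ± 6.90 in WT saline, and was called higher in KO against WT averaged over treatments (log2 difference 0.67 ± 0.17, limma adjusted p = 0.0329). That was 1 call among the 18 binding partners and basement membrane genes tested and 0 in the other lists around the collagens, where 4.15% of all genes were called. Lum is also 1 of the 14 adventitial fibroblast markers, of which 7 lay above 0 in that comparison and 7 below. Of the other marker lists, 1 white fat marker was called higher there, while 1 of the 12 tested lay above 0 and 11 below (median -0.24). Among markers of B and plasma cells 1 was called lower, and 0 of 12 lay above 0 (median -1.36). Of all genes 38.7% lay above 0 in that comparison.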

How the data were processed

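Total RNA of abdominal aorta was depleted of ribosomal RNA and sequenced as 20 libraries in 4 groups of 5, per the labels' protocols. For each library the authors deposited a table of FPKM per transcript model, made on mm10 with limma among the tools, per the submitters' processing notes; no source used here names the aligner or quantifier. That the values are FPKM was read from the files. Of 126719 models, 110082 carried an Ensembl mouse ID, 109913 of these matched GENCODE M21 and were summed per gene, and 169 unmatched and 16637 unannotated models were left out. FPKM times transcript length gave whole reads for 99.2% to 99.4% of low values (within 0.1 read). Values were tested as log2(FPKM + 1) with limma 3.58.1 (R 4.3.3; 1 mean per group, trend and robust), over 15010 genes that reached 1 FPKM in 5 libraries or more and over 25362 transcripts. Shares and ratios had exact two-sided permutation tests (scipy 1.17.1). The transcript and gene fits were tested on simulated data for AngII against saline in KO: of 200 changed features among 15010 genes, 65% at a log2 change of 1 and 91% at 2 were recovered, and of 200 among 25362 transcripts, 45% and 75%. Library numbers were checked for pairing: 7 of 20 same-number pairs correlated over 0.1 (-0.523 to 0.395), so the libraries were not treated as paired. This check cannot exclude a factor shared by libraries of the same number. All 9 collagens are named, and of the lists the called genes or up to 3 with the smallest p. For each tested collagen the 3 genes most like it are named, among tested genes outside the 9 and without predicted names. The members and lists were chosen with earlier results of these data known. Alternatives covered scaling, filters, pseudocount, library weights, limma-voom on recovered reads, covariates for other cell types, a replicate block and leaving out libraries. Protein sequences and promoters of Col12a1 and Col14a1 were not analysed here.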

Additional observations from a re-analysis of the deposited data

Results flagged for a closer look

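Single libraries stood far from the other 4 of their group in 3 of the 36 groups of values (9 genes by 4 groups), where chance flags about 1 in 20 groups. Col6a1 was lowest in KO AngII 1, at 52.8 FPKM, with the next library at 93.5 FPKM. Col14a1 was lowest in KO saline 1, at 0.733 FPKM, with the next at 20.1 FPKM. Col18a1 was highest in WT AngII 4, at 119 FPKM, with the next at 44.9 FPKM.

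Among the 16637 unannotated transcript models, 2 were seen above 5 FPKM in KO saline 1 and WT AngII 2 and next to nowhere else, the libraries in which the main Col14a1 transcript was listed at 0. The lower of their 2 values was 9.25 FPKM for the first model and 5.18 FPKM for the second. Of the 190 pairs of libraries, 92 had at least 1 such model, and whether these models hold Col14a1 reads was not tested.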

How the results depend on the processing

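Of the tested collagens none was called under any alternative, except that library weights called 1 for KO against WT averaged over treatments (Col6a3, 0.73, adjusted p = 0.0356), a setting that called 4039 of all genes there, against 623. Of single transcripts, 0 were called, or 1 without WT AngII 3. The cause of the turns below was not tested. Outside the leaving out of single libraries, log2 differences turned sign in 27 cases, against 725 that kept sign and call and 1 that kept its sign and gained a call. With KO saline 1 and WT AngII 2 both left out, a choice made after seeing the data, AngII in WT was 0.16 for Col12a1 and 0.42 for Col14a1, KO against WT was -0.037 for Col14a1 under AngII and 0.0027 for Col15a1 under saline, and the difference between AngII effects was -0.088, -0.021 and -0.060 for Col6a1, Col6a2 and Col6a3. For KO against WT under AngII, quantile normalization gave 0.10 for Col6a1 and 0.18 for Col6a2, TMM-like factors 0.0025 and 0.094, library weights 0.035 for Col6a2 and -0.14 for Col18a1, and limma-voom 0.015 for Col6a2. For KO against WT under saline, library weights gave 0.090 for Col8a1, -0.31 for Col12a1 and 0.18 for Col15a1, and the skeletal muscle and white fat covariates -0.12 for Col12a1. For KO against WT averaged over treatments, Col14a1 was 0.0022 with TMM-like factors, 0.31 with weights and 0.068 with those covariates, which gave -0.0019 for Col15a1 and 0.033 for Col18a1, while the fibroblast covariate gave -0.0040 for Col15a1. For AngII averaged over genotypes, limma-voom gave -0.17 for Col12a1 and the fibroblast covariate -0.0025 for Col14a1, and in WT that covariate gave -0.14 for Col8a1. Leaving out 1 library at a time turned 31 values, against 1089 that kept their sign. For AngII in WT the ranges were -0.049 to 0.23 for Col8a1, -0.40 to 0.16 for Col12a1 and -0.55 to 0.42 for Col14a1. For KO against WT under AngII they were -0.18 to 0.063 for Col6a1, -0.11 to 0.15 for Col6a2, -0.037 to 0.93 for Col14a1, -0.023 to 0.36 for Col15a1 and -0.022 to 0.51 for Col18a1. Under saline they were -0.13 to 0.43 for Col6a3, -0.22 to 0.22 for Col12a1 and -0.22 to 0.0027 for Col15a1. For KO averaged they were -0.44 to 0.30 for Col14a1, -0.064 to 0.13 for Col15a1 and -0.21 to 0.061 for Col18a1, for AngII averaged -0.012 to 0.27 for Col12a1, and for the difference between AngII effects -0.020 to 0.34 for Col6a1. limma-voom on recovered reads called 165 of all genes for KO against WT under AngII, against 275, and 528 for KO averaged, against 623. The replicate block, with numbers that showed no clear pairing of the libraries, called 0 collagens in each comparison. Of the 20 libraries, 3 correlated best with a library of their own number.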
